A study of Mus musculus with 12 samples.

Results

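The proteasome subunit genes were taken as every gene symbol made of *Psm*, a letter from a to g and a number, and 48 of the 35976 symbols in the count files matched. By known role they comprised 8 alpha and 7 constitutive beta genes of the 20S core, 4 tissue or interferon type beta genes, 6 ATPase and 11 non-ATPase genes of the 19S regulatory particle, 3 chaperones of 19S assembly, 5 activator or inhibitor genes and 4 chaperones of 20S assembly. Of the 48 genes, 47 passed the low-count filter and were tested. *Psmb11*, the beta subunit of thymus cortex epithelium, did not pass, with 0 to 2 counts per library and 0 in 6 of the 12 libraries. It lay below a floor of 3 counts, which is separate from the filter. That floor corresponds to 0.0435 to 0.12 CPM (counts scaled to the effective library total).

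The proteasome is the protease that degrades proteins tagged with ubiquitin. Its 20S core is a barrel of stacked rings, in which alpha subunits gate the entry and beta subunits carry the cutting sites, and the 19S particle recognises, unfolds and feeds in the substrate with a ring of ATPases. Dedicated chaperones build each particle, interferon signalling exchanges the cutting subunits for the immunoproteasome forms, and male meiotic cells use an alpha subunit of their own, *Psma8*.

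Pregnant outbred Swiss (RjOrl) mice received the neonicotinoid insecticide thiacloprid (*thia*) by gavage at 0 or 6 mg/kg/day from E6.5 to E15.5. The F1 testes came from embryos exposed in utero. The F3 testes came from embryos whose exposed ancestors were bred through males to untreated, unrelated females, so the F3 embryos were not treated themselves. RNA of whole testes at E15.5 was sequenced in 12 libraries, each from a pool of 3 embryos, with 3 libraries for F1 control, F1 *thia*, F3 control and F3 *thia*. The animals were male, of 1 outbred strain, and the mother and line behind each pool were not given in the labels, so p-values measure the spread between these pools.

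The libraries held 25081647 to 68996146 counts. Marker genes of germ cells, Sertoli cells and fetal Leydig cells were expressed in each library, and no gene of any marker list was at 0 in every library, those of skeletal muscle, adrenal cortex and red blood cells included. The summed level of 8 red blood cell markers was 45447 to 83556 CPM in F3 and 5264 to 19079 CPM in F1. F1 *thia* replicate 2 had 612 CPM of 10 skeletal muscle markers, against 46.1 to 116 in the other F1 libraries. F3 *thia* replicate 2 stood apart by its counts, with a chi-square per degree of freedom of 90.7 and 101 against the other replicates of its group, where all other replicate pairs gave 17.3 to 42.2. In whole testis RNA, fewer cells of a type and less RNA per cell cannot be told apart.

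Promoter sequence is shown for 3 members with small p in F3, because proteasome genes are known to share activators, namely factors of the antioxidant response element family and the CCAAT-binding factor. The 3 were not taken strictly by p. RefSeq windows (GRCm38.p6, which is mm10) of 250 bases before to 50 after a start were found for 40 of the 48 members. *Psmd13* (unadjusted edgeR p in F3 of 0.00046), *Psmd14* (0.000984), *Psmc3* (0.00123) and *Psma7* (0.00196) had smaller p than *Psmd10* (0.00298). *Psmc3* had no window. *Psmd13* and *Psma7* had windows but no stretch long enough outside annotated exons. The *Psmd14* stretch, not shown, held none of the motifs searched. Its window held CCAAT outside that stretch, 159 bases before the start and 4 and 7 after it. The stretches are given 5′ to 3′ on the strand of the gene, leave out bases in annotated exons, and carry motif letters in capitals. The *Psmb5* stretch (chr14:54618023-54618172, minus strand) holds TGACNNNGC, the core of the antioxidant response element, and the *Psmd10* stretch (chrX:140956729-140956878, minus strand) holds CCAAT on the opposite strand at 2 places.
Psmb5: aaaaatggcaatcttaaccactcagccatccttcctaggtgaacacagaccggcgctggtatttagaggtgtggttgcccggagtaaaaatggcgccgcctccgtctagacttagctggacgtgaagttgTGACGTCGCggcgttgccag
Psmd10: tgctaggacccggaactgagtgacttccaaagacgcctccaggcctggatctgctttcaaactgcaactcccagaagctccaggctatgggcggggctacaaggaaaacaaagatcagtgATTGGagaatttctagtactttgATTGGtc

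*Psma6* has windows at 2 starts. The first holds CCAAT at 2 places, and the stretch before the second (chr12:55398625-55398774, plus strand), shown here, holds none of the motifs searched.
Psma6: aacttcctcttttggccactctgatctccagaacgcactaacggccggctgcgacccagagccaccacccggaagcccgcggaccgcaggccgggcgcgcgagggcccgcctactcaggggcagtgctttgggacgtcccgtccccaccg

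Each motif was searched on both strands. TGACNNNGC was in 6 of the 43 member windows (14%), against 12.4% of all 32851 windows, and CCAAT was in 14 (32.6%), against 37.4%. TTCNNNGAA, the interferon gamma activated site, was in 3 (6.98%) against 8.3%, those of *Psmb8*, *Psmd2* and *Psmg1*. The core of the interferon-stimulated response element was in 5 (11.6%) against 3.44%. These were *Psmb3*, *Psmd4*, *Psmd9*, *Psme1* and *Psmg4*, with no tissue beta gene among them. A match describes these letters in these windows only. The median log2 fold change in F3 was −0.22 for the 6 members with TGACNNNGC and −0.24 for the members without it, and −0.26 with CCAAT and −0.20 without.

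Levels were compared between genes per kb of exon, because longer genes collect more counts. Over all 12 libraries, *Psma6*, an alpha subunit, had the highest level, 228 ± 55.4 CPM per kb (SD, n = 12). *Psmd2*, a scaffold of the 19S base that binds ubiquitin receptors, followed at 193 ± 35.0, and the core genes *Psmb6* (the caspase-like site) and *Psmb4* at 176 ± 23.3 and 175 ± 28.9. *Psmd2*, *Psmb6* and *Psmb4* lay within 1 SD of each other in level, and within the wide SD of *Psma6*. By their own SD, *Psma6* lay more than 1 SD above *Psmb6* and *Psmb4*. The order of the 4 genes depended on the length used. With the longest transcript *Psmb6* led at 340 CPM per kb, then *Psmb4* at 289, *Psma6* at 270, *Psmb1* at 261 and *Psmd2* at 260. It also differed between generations. Per kb of exon, *Psmd2* was above *Psma6* in F1 control (215 against 182) and in F1 *thia* (225 against 182). The SD over 12 libraries includes that difference between generations. *Psmc1* had the highest level of the ATPase genes, 126 ± 12.8 CPM per kb, and *Psmc2* the lowest, 31.0 ± 1.78.

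The tissue forms were far lower. *Psmb10* was at 10.1 ± 2.73 CPM per kb, *Psma8* at 3.25 ± 1.26, *Psmb8* at 0.652 ± 0.381 and *Psmb9* at 0.547 ± 0.152, and the last pair overlapped. The 14 constitutive core genes held 48.4% of the summed CPM per kb of the 48 genes, the 19S non-ATPase genes 23.2%, the ATPase genes 15.8% and the tissue beta genes 0.384%. The 4 *Psmg* genes held 4.37%, and *Psmd5*, *Psmd9* and *Psmd10* held 1.51%. With the longest transcript in place of all exons the share of the constitutive core was 51.2%.

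**Figure D1:**
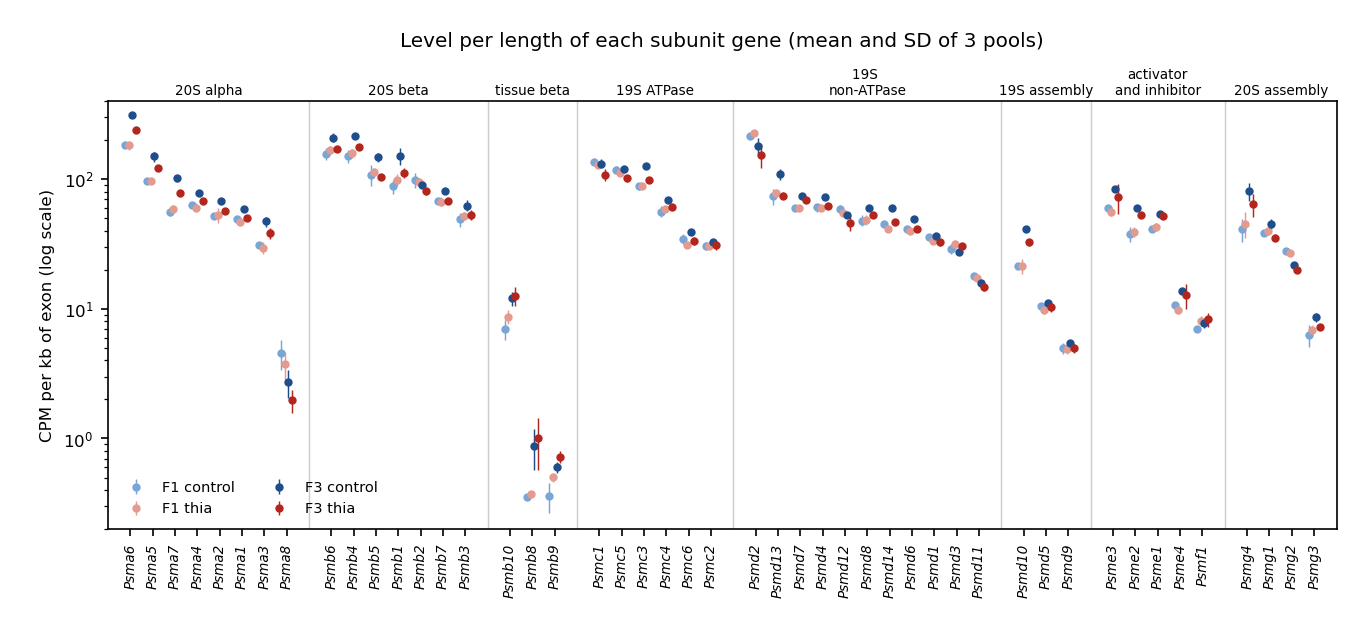
Level of each tested subunit gene in CPM per kb of exon (log axis), as the mean and SD of 3 pools for each of the 4 groups, ordered by level within each role. *Psma6* and *Psmd2* lead at 228 and 193 CPM per kb over all libraries, and *Psma8*, *Psmb8* and *Psmb9* lie at 3.25, 0.652 and 0.547.

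Direct exposure was examined in F1 by comparing *thia* with control libraries. None of the 47 members passed the FDR of 0.15 of the edgeR quasi-likelihood test in either direction (0 lower and 0 higher, where 0.00523% of all 19137 genes were called lower and 0.00523% higher), and DESeq2 called 0 as well. At an unadjusted p under 0.05 there were also 0 members, against 4.13% of all genes lower and 4.63% higher. The median log2 fold change of the members was 0.01, beside 0.009 for all genes, with 19 members below 0 (48.0% of all genes) and 28 above. The 95% interval of a member had a median half-width of 0.21 on the log2 scale. The smallest adjusted p was 0.571 (edgeR), for *Psmf1*.

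*Psmf1* encodes an inhibitor of the 20S core. Its level was 45.8, 47.0 and 43.0 CPM in F1 control and 47.4, 51.9 and 56.4 CPM in F1 *thia* replicates 1 to 3. All *thia* libraries lay above all controls, by a narrow margin (log2 fold change 0.21 ± 0.097 SE). In F1, *Psmf1* and 1 other member, *Psmd14*, had groups that did not overlap, where 6.55% of all genes did so upward and 8.45% downward. *Psmd14*, the deubiquitinase that removes the ubiquitin chain at the 19S particle, had 122, 131 and 127 CPM in F1 control and 116, 110 and 120 CPM in F1 *thia* (log2 fold change −0.12 ± 0.084 SE, edgeR adjusted p = 0.666).

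In the F1 core genes the largest value among the constitutive beta genes was that of *Psmb1*, a structural subunit of the beta ring, with 432, 430 and 344 CPM in control and 452, 409 and 498 CPM in *thia*. The groups overlapped (log2 fold change 0.19 ± 0.12 SE, edgeR adjusted p = 0.642). F1 control replicate 3 was the lowest F1 library for *Psmb1*, *Psmb3*, *Psmb4*, *Psmb5* and *Psmb6*. In the ATPase ring, *Psmc6* had a log2 fold change of −0.15 and *Psmc4* of 0.08, both with overlapping groups. In the assembly genes, *Psmg4* had 0.15 and *Psmd5* −0.09.

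*Psmb9* and *Psmb10* had the largest positive values in F1. *Psmb9*, the immunoproteasome form of the caspase-like subunit, had 1.72, 1.17 and 1.08 CPM in control and 1.91, 1.93 and 1.66 CPM in *thia* (log2 fold change 0.48 ± 0.24 SE, edgeR adjusted p = 0.592). *Psmb10*, the form of the trypsin-like subunit, had 13.1, 13.1 and 9.57 CPM in control and 15.4, 12.8 and 16.2 CPM in *thia* (0.32 ± 0.15 SE, adjusted p = 0.577, edgeR). In both genes 1 library kept the groups overlapping. *Psmb8* had a log2 fold change of 0.09 ± 0.22 SE in F1. *Psma8* was highest in control replicate 2, at 14.5 CPM, and lowest in *thia* replicate 3, at 6.76 CPM (−0.28 ± 0.22 SE), while the summed level of 10 germ cell markers was 1180 to 1591 CPM in F1 control and 1017 to 1219 CPM in F1 *thia*. All 10 markers had a log2 fold change below 0 in F1 (48.0% of all genes), 7 of them at an unadjusted edgeR p under 0.05 (4.13% of all genes). The part of germ cell content in the *Psma8* values was not tested. Without F1 *thia* replicate 2, the library with muscle markers, 17 members were below 0, 0 were called and 1 was higher at an unadjusted p under 0.05 (4.55% of all genes).

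Ancestral exposure was examined in F3 in the same way. Of the 47 members, 42 had a log2 fold change below 0, where 49.4% of all 18539 genes did. The core, the ATPase ring and both sets of assembly chaperones were below 0 in full, and the 3 tested tissue beta genes were above 0. The median was −0.24 for the members and 0.004 for all genes. No member passed the FDR of 0.1 of edgeR (0 lower, 0 higher), and neither did any gene of the table (0.0% in each direction). The smallest adjusted p, over all genes and over the members, was 0.101. At an unadjusted p under 0.05, 27 members were lower and 0 higher, where 10.0% of all genes were lower and 11% higher.

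The count of calls in F3 depended on the tool. DESeq2, at the same FDR of 0.1, called 15 members lower and 0 higher, and edgeR at an FDR of 0.15 called 19 lower (4.78% of all genes). At that FDR of 0.15 edgeR called 0 members when any 1 F3 control library was left out and 0 when *thia* replicate 3 was. Over all genes it then called 0, 3 and 0 lower without control replicates 1, 2 and 3, and 0 without *thia* replicate 3. Leaving out *thia* replicate 1 gave 16 members (1069 of all 18835 genes lower), and leaving out *thia* replicate 2 gave 17 (1108 of 18974). With the replicate block edgeR called 0 members (1 of all 18539 genes lower), and with the length trend removed 8 (556 of 18539). For DESeq2 5.95% of the genes with an adjusted p were called lower and 9.54% higher. Among the 10695 genes with at least 10 CPM on average, 27 of the 44 members and 13.7% of the genes were lower at an unadjusted p under 0.05. Without F3 *thia* replicate 2, the library that stood apart, edgeR called 9 members lower (2.59% of all genes), 45 members were below 0, and 27 were lower at an unadjusted p under 0.05 (10.4%). The direction was shared by the libraries: against the F3 control mean, the median member was at −0.21, −0.22 and −0.26 in *thia* replicates 1 to 3, with 42, 39 and 43 of 47 members below 0, and at 0.06, −0.04 and −0.02 in the controls.

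**Figure D2:**
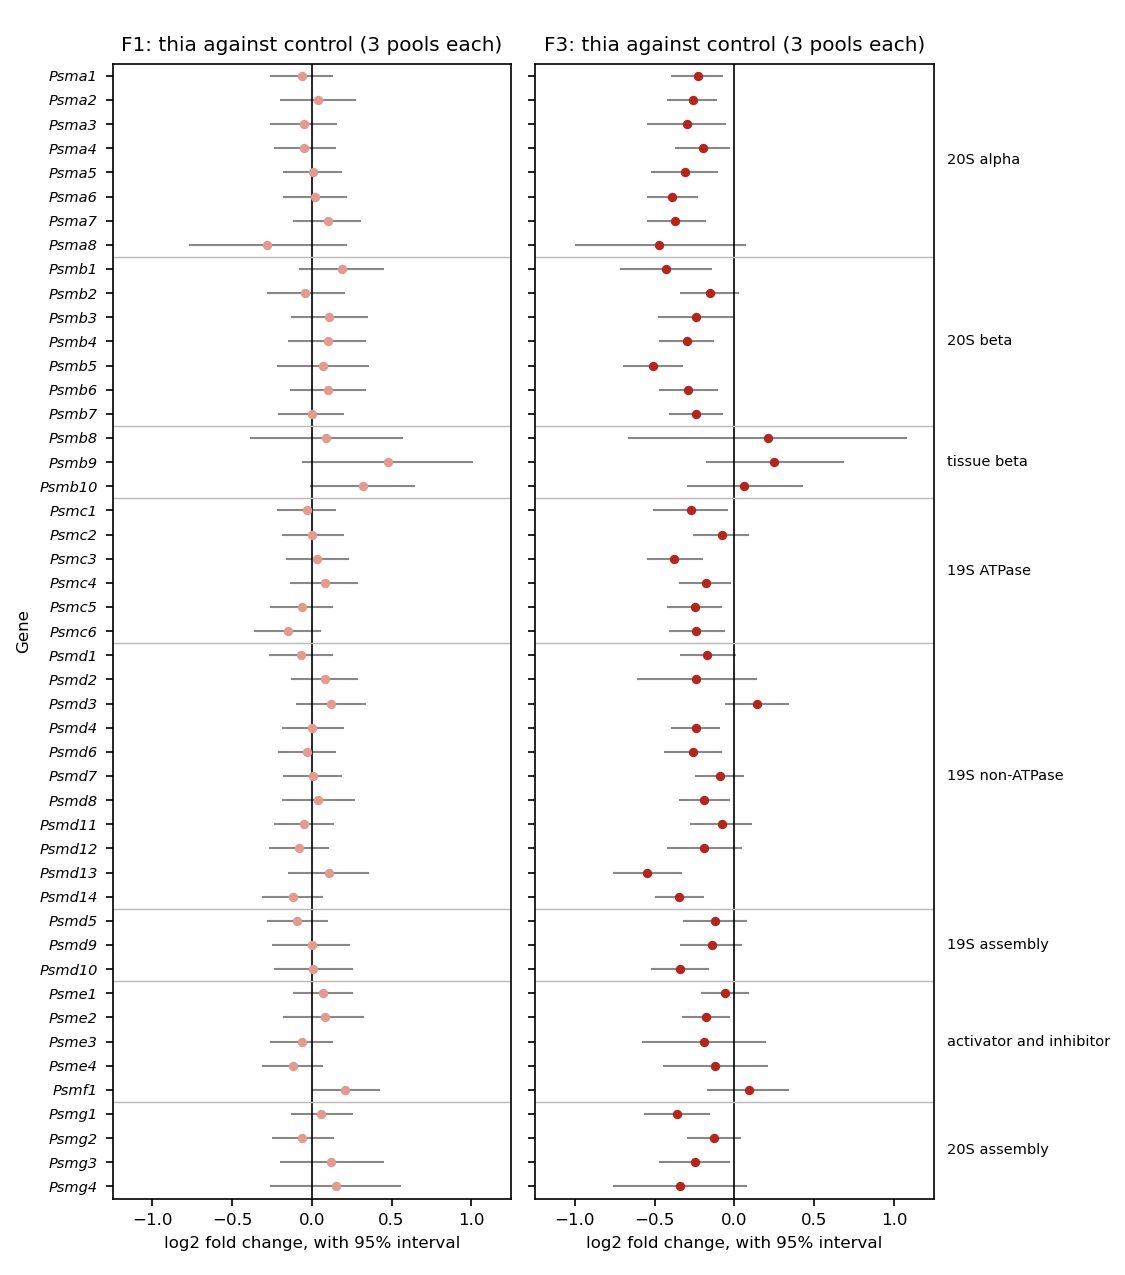
Log2 fold change of *thia* against control for each tested member in F1 (left) and F3 (right), with 95% intervals from edgeR on 3 pools per group, ordered by role. In F1 the points scatter around 0 (median 0.01), and in F3 42 of 47 lie below 0 (median −0.24), with *Psmd13* lowest at −0.55 and *Psmb9* highest at 0.25.

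In the alpha ring, 7 of 8 genes were lower in F3 at an unadjusted p under 0.05 (10.0% of all genes), and 4 by DESeq2 (5.95%). *Psma6* had 397, 372 and 378 CPM in F3 control and 293, 297 and 287 CPM in F3 *thia*. All *thia* libraries lay below all controls, and the *thia* libraries were closer to each other than to any control (log2 fold change −0.39 ± 0.067 SE, edgeR adjusted p = 0.105, DESeq2 adjusted p = 0.000698). *Psma7*, the alpha subunit whose place *Psma8* takes in meiotic cells, had 333, 305 and 295 CPM in control and 229, 250 and 244 CPM in *thia* (−0.37 ± 0.079 SE, adjusted p = 0.105 in edgeR and 0.00907 in DESeq2). The groups were again separate. *Psma8* itself had 8.65, 6.09 and 5.63 CPM in control and 5.86, 3.88 and 4.99 CPM in *thia*, with overlapping groups (−0.47 ± 0.23 SE, edgeR adjusted p = 0.290). Beside it, the summed level of germ cell markers was 708 to 1104 CPM in F3 control and 458 to 877 CPM in F3 *thia*. All 10 markers had a log2 fold change below 0 in F3 (49.4% of all genes), 3 of them at an unadjusted edgeR p under 0.05 (10.0%). Their part in the *Psma8* value was not tested.

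In the constitutive beta ring, 6 of 7 genes were lower at an unadjusted p under 0.05 (10.0% of all genes) and 4 by DESeq2 (5.95%). *Psmb5*, which carries the chymotrypsin-like site and whose promoter stretch is shown above, had 144, 129 and 124 CPM in F3 control and 90.0, 91.4 and 97.4 CPM in F3 *thia*. The groups were separate by more than the spread of either (−0.51 ± 0.081 SE, adjusted p = 0.101 in edgeR and 0.000392 in DESeq2). An annotated miRNA gene, *Mir686*, shares exon bases with *Psmb5* on the same strand. *Psmb4* had 448, 407 and 411 CPM in control and 334, 350 and 347 CPM in *thia* (−0.30 ± 0.074 SE, edgeR adjusted p = 0.113). *Psmb6* had 423, 380 and 364 against 323, 310 and 323 CPM (−0.29 ± 0.079 SE, edgeR adjusted p = 0.126). *Psmb1* was lower by a larger value but with a wider spread, 790, 708 and 579 CPM in control and 560, 507 and 472 CPM in *thia* (−0.43 ± 0.12 SE, edgeR adjusted p = 0.132), the groups being only just separate.

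The 3 tested tissue beta genes had F3 values on the other side of 0, none of them past a threshold. *Psmb8*, the interferon-inducible form of *Psmb5*, had 3.01, 1.89 and 3.93 CPM in F3 control and 2.43, 5.12 and 2.71 CPM in F3 *thia* (0.21 ± 0.38 SE, edgeR adjusted p = 0.791). Its value turned to −0.20 without *thia* replicate 2, and it was −0.04 without control replicate 2. *Psmb9* had 2.08, 2.45 and 2.1 CPM in control and 2.59, 2.96 and 2.38 CPM in *thia* (0.25 ± 0.18 SE), and *Psmb10* had 21.1, 17.8 and 22.5 against 17.7, 24.9 and 21.8 CPM (0.06 ± 0.15 SE), both with overlapping groups. For each of the 3 genes the highest F3 level was in *thia* replicate 2. As a share of the constitutive partner, *Psmb9* was at 0.251 to 0.330% of *Psmb6* in F3 control and at 0.377 to 0.489% in F3 *thia*, and *Psmb8* was at 0.390 to 0.845% of *Psmb5* in control and at 0.718 to 1.49% in *thia*. The *Psmb10* share of *Psmb7* was 13.3 to 17.1% in control and 14.4 to 21.7% in *thia*. These are ratios of CPM per kb of exon, so they differ from ratios of the CPM printed above. In F3 the *Psmb9* share did not overlap between the groups while the others did. In F1 the *Psmb10* share did not overlap, at 8.51 to 11.4% in control and 12.2 to 13.5% in *thia*, while those of *Psmb8* and *Psmb9* did. How often the ratios of other gene pairs separate was not tested. *Psmb8* shares exon bases with *Gm20496* and *Psmb9* with *Tap1* on the opposite strand.

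In the ATPase ring, 5 of 6 genes were lower at an unadjusted p under 0.05 (10.0% of all genes) and 1 by DESeq2 (5.95%), *Psmc3*. *Psmc3*, an ATPase of the 19S base, had 347, 317 and 325 CPM in F3 control and 256, 266 and 241 CPM in F3 *thia*. The groups were separate (−0.38 ± 0.074 SE, adjusted p = 0.105 in edgeR and 0.00413 in DESeq2). *Slc39a13* shares exon bases with *Psmc3* on the opposite strand. *Psmc5* had 173, 166 and 161 CPM in control and 151, 137 and 134 CPM in *thia* (−0.25 ± 0.073 SE, edgeR adjusted p = 0.138). *Psmc2*, the lowest of the ring per kb, had 167, 161 and 165 against 168, 155 and 143 CPM, with overlapping groups (−0.08 ± 0.076 SE).

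The 19S non-ATPase genes were the most uneven group, with 5 of 11 lower at an unadjusted p under 0.05 (10.0% of all genes) and 4 by DESeq2 (5.95%). *Psmd13*, a lid subunit, had the lowest log2 fold change of all members, with 409, 357 and 337 CPM in F3 control and 267, 248 and 239 CPM in F3 *thia*. The groups were well separate (−0.55 ± 0.092 SE, adjusted p = 0.105 in edgeR and 0.000308 in DESeq2). Some of its exon bases (gene at chr7:140881968-140898643, plus strand) are shared with *Sirt3* on the opposite strand. *Psmd14* had 171, 164 and 168 CPM in control and 139, 130 and 128 CPM in *thia*, again separate (−0.35 ± 0.066 SE, adjusted p = 0.105 in edgeR and 0.00519 in DESeq2). *Psmd2*, with 814, 754 and 611 CPM in control and 765, 543 and 544 CPM in *thia*, overlapped (−0.24 ± 0.16 SE, edgeR adjusted p = 0.445). *Psmd11*, a lid subunit, was at 99.5, 96.9 and 105 against 95.9, 87.0 and 101 CPM (−0.08 ± 0.082 SE). *Psmd3*, also of the lid, was the 1 gene of this group above 0, with 134, 130 and 147 CPM in control and 141, 159 and 152 CPM in *thia* (0.14 ± 0.085 SE, edgeR adjusted p = 0.397).

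Of the 3 chaperones of the 19S base, *Psmd10* (gankyrin), whose promoter stretch with CCAAT is shown above, had 63.7, 58.7 and 58.4 CPM in F3 control and 45.2, 50.7 and 47.4 CPM in F3 *thia*, with separate groups (−0.34 ± 0.077 SE, adjusted p = 0.105 in edgeR and 0.0282 in DESeq2). *Psmd9* had 40.5, 37.8 and 40.6 against 34.8, 39 and 34.0 CPM, with overlapping groups (−0.14 ± 0.084 SE), and *Psmd5* had −0.12 ± 0.085 SE. Of the 20S chaperones, *Psmg1* had 67.0, 56.4 and 59.2 CPM in control and 48.2, 49.9 and 44.3 CPM in *thia* (−0.36 ± 0.089 SE, adjusted p = 0.113 in edgeR and 0.0343 in DESeq2). These groups did not overlap. *Psmg3* had 24.7, 22.9 and 26.7 against 20.6, 21.4 and 20.6 CPM (−0.25 ± 0.093 SE, edgeR adjusted p = 0.188). *Psmg4*, the highest 20S chaperone per kb, ranged from 37.3 to 51.1 CPM in control and from 27.5 to 42.1 CPM in *thia*, which overlapped (−0.34 ± 0.18 SE).

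The activator genes were less uniform. *Psme2*, a subunit of the interferon-inducible activator, had 104, 106 and 108 CPM in F3 control and 91.6, 97.1 and 92.7 CPM in F3 *thia*, with separate groups (−0.18 ± 0.065 SE, edgeR adjusted p = 0.179). Its near copy *Psme2b* had 31.7, 31.6 and 35.3 CPM in F3 control, which per kb of exon was 62.5 to 68.8% of *Psme2*. How the counting split reads between them is uncertain. *Psme3*, which forms the nuclear activator, had 237, 242 and 256 CPM in control and 189, 277 and 176 CPM in *thia* (−0.19 ± 0.17 SE). Its log2 fold change was −0.42 without *thia* replicate 2, past the FDR of 0.1 (edgeR adjusted p = 0.0691), and −0.12 and −0.07 without *thia* replicates 1 and 3. *Psme4*, the activator known from spermatogenic cells, had 116 CPM in each control and 100, 132 and 88.4 CPM in *thia* (−0.12 ± 0.14 SE). In both, *thia* replicate 2 was the highest of the 6 libraries and the other *thia* replicates were the lowest. *Psmf1* had 54.1, 45.8 and 50.7 against 49.7, 61.0 and 49.3 CPM (0.09 ± 0.11 SE), also highest in that replicate.

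**Figure D3:**
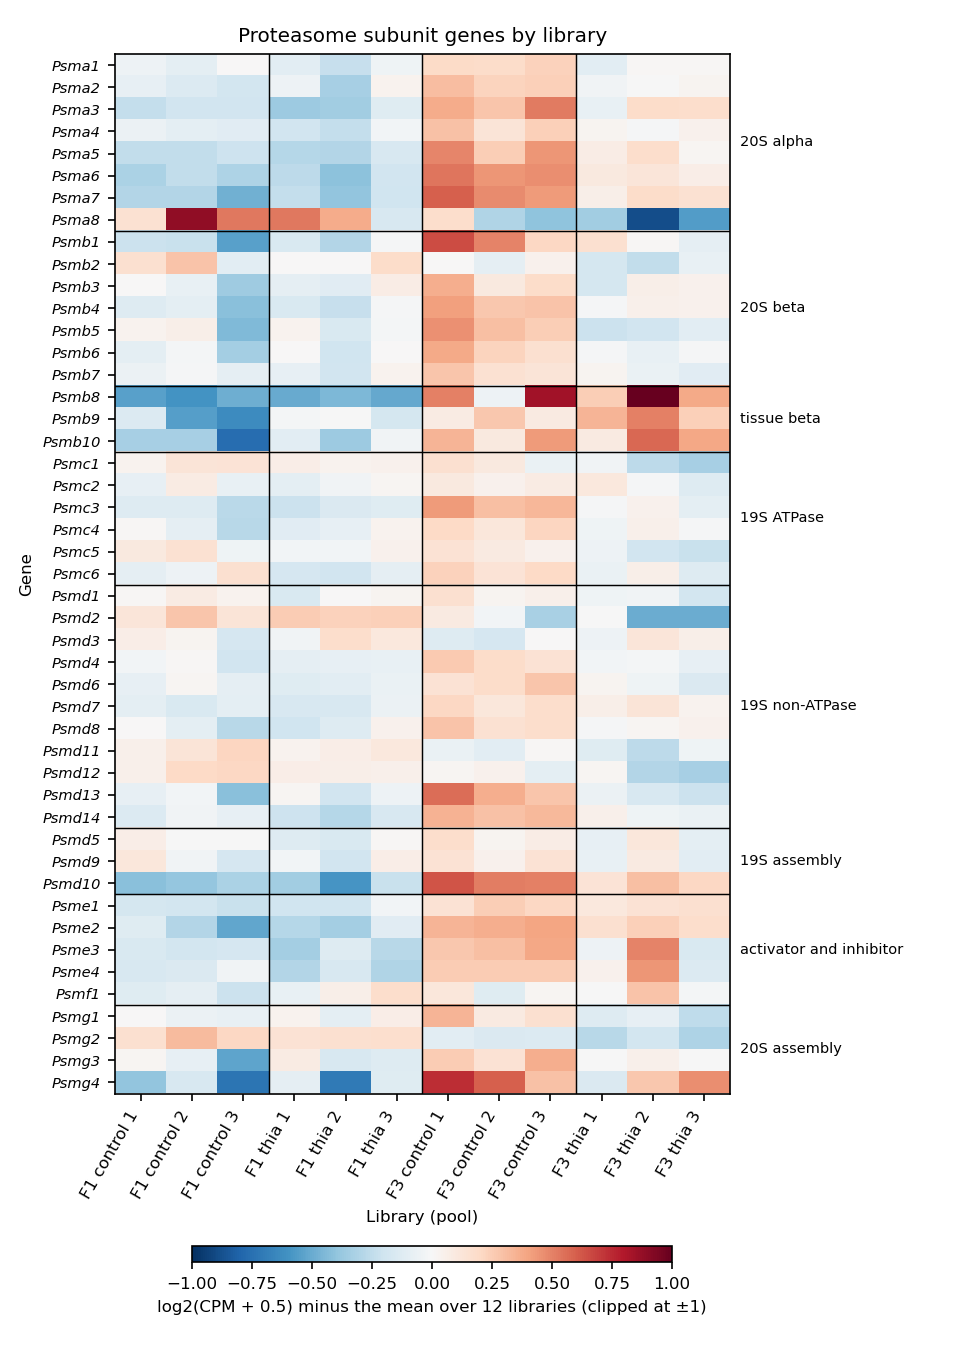
Log2(CPM + 0.5) of the 47 tested members in each of the 12 libraries, minus the mean of the gene over the libraries, in rows ordered by role and columns by group. The F3 control columns are mostly red, the F3 *thia* columns near white, and *Psme3*, *Psme4* and the tissue beta genes are reddest among the *thia* columns in F3 *thia* 2.

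The groups of roles were also summed per library. The 8 alpha genes had 1753, 1616 and 1692 CPM in F3 control and 1321, 1394 and 1372 CPM in F3 *thia*. The 7 constitutive beta genes had 2364, 2126 and 1993 CPM in control and 1758, 1709 and 1693 CPM in *thia*. The 6 ATPase genes had 1248, 1176 and 1172 against 1052, 1018 and 949 CPM. In these 3 groups no *thia* library reached a control library. The same held for the 19S non-ATPase genes at 2445 to 2757 against 2085 to 2398 CPM, the 19S chaperones at 173 to 189 against 151 to 171 CPM and the 20S chaperones at 161 to 181 against 130 to 145 CPM. The activator and inhibitor genes (627 to 651 against 522 to 683 CPM) and the tissue beta genes (22.2 to 28.6 against 22.7 to 33.0 CPM) overlapped. Over single members, 28 of 47 had F3 groups that did not overlap in the lower direction, where 13.9% of all genes did, and 0 in the higher direction, where 13.4% did. An exact permutation test over 3 and 3 pools has 0.1 as its smallest two-sided p.

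**Figure D4:**
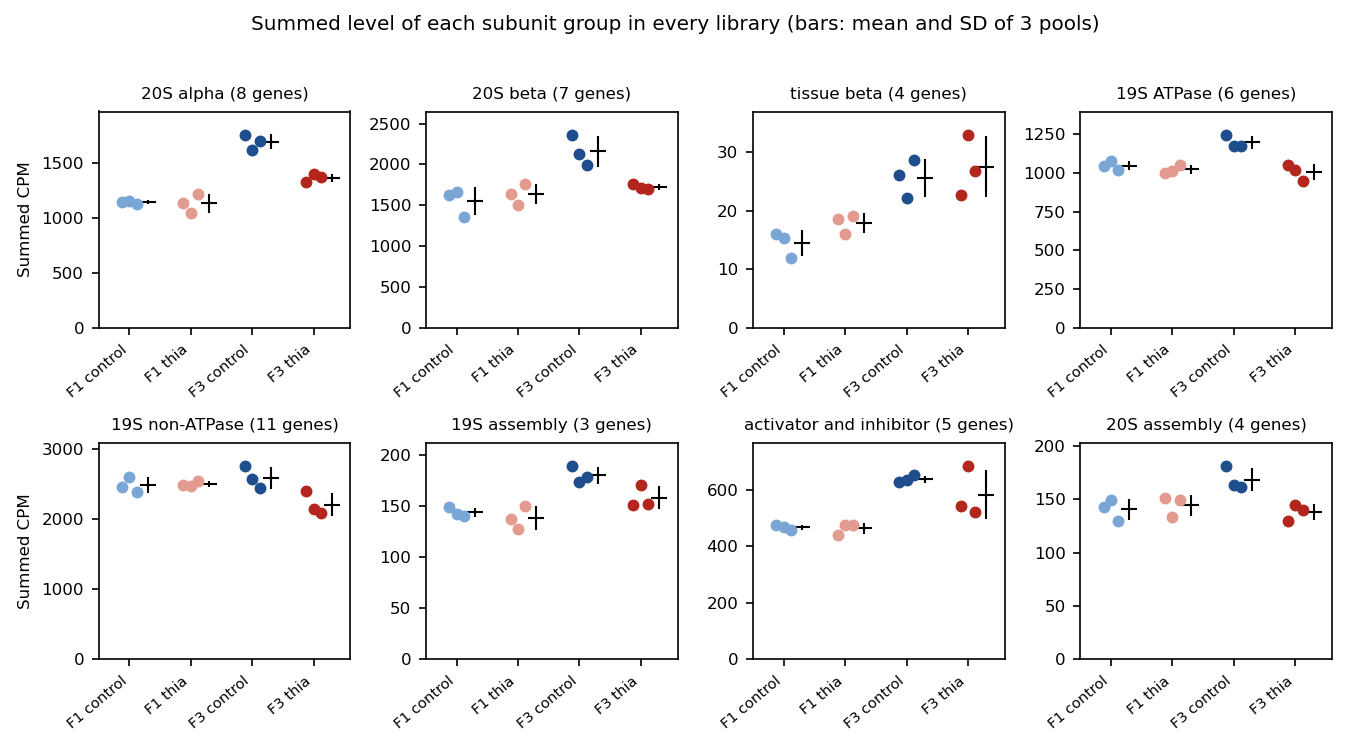
Summed CPM of each role in every library, with the mean and SD of 3 pools beside the points, from an axis starting at 0. In the alpha, beta and ATPase groups the F3 control libraries lie above all others, and the F3 *thia* libraries of the alpha group (1321 to 1394 CPM) still lie above the F1 libraries (1041 to 1215 CPM).

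Gene length moved with the F3 values. The members had a median of 2814 exon bases (555 to 8382), against 4025 for all genes tested, and the median log2 fold change of all genes in F3 went from −0.12 in the shortest of 5 equal bins of length to 0.116 in the longest. In the shortest bin the 14 members had a median of −0.29. In the second and the third bin it was −0.24 (16 members) and −0.24 (9 members), where all genes had −0.042 and −0.004. In the fourth bin the 4 members had a median of 0.0, against 0.041, and in the longest bin 4 members had −0.13, against 0.116. With the length trend removed, the member median in F3 was −0.19, 41 members were below 0, and 20 were lower at an unadjusted p under 0.05, where 9.33% of all genes were. In F1 the trend was the opposite, 0.079 in the shortest and −0.06 in the longest bin.

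**Figure D5:**
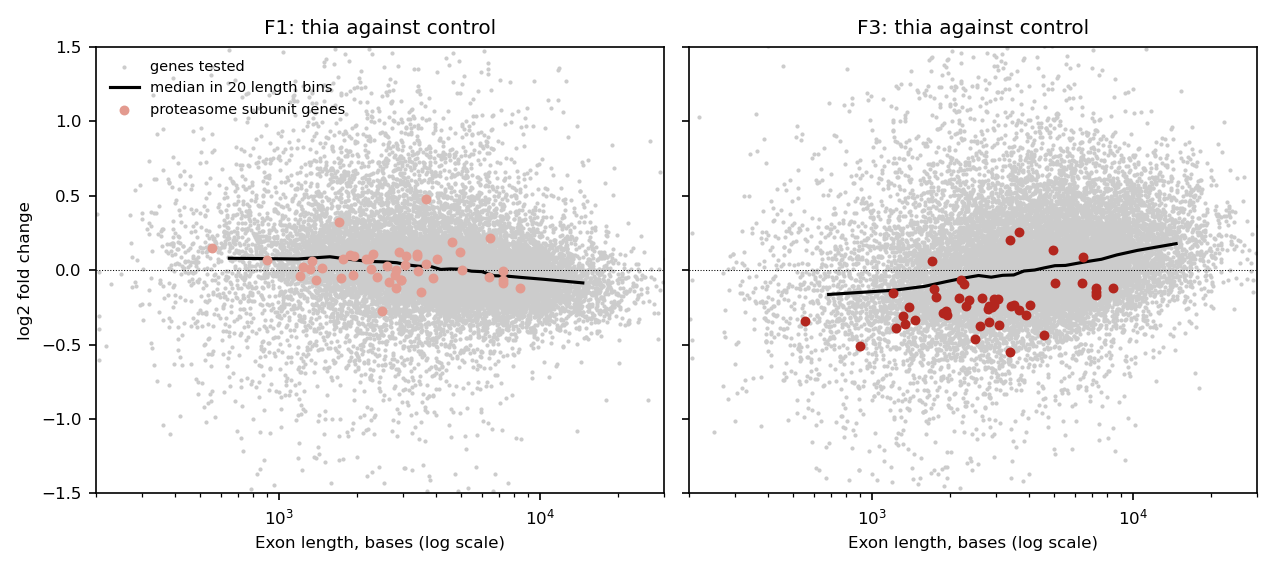
Log2 fold change of *thia* against control by exon length (log axis) in F1 (left) and F3 (right), with all tested genes in grey, their median in 20 length bins as a line and the members as coloured points. In F3 the line rises with length and most members lie below it, with a member median of −0.24, or −0.19 once the trend is removed.

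Cell type markers moved as well. In F3 *thia* the summed level of 8 fetal Leydig cell markers was 4069 to 7320 CPM, above the 2391 to 3876 CPM of F3 control. All 8 had a log2 fold change above 0 (50.6% of all genes). Endothelial markers were at 276 to 328 against 206 to 227 CPM, and interstitial markers at 7247 to 8866 against 5918 to 7355 CPM. Red blood cell markers were at 45447 to 83556 against 62332 to 67057 CPM. The part of cell composition in the F3 values of the proteasome genes was not tested.

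Whether the *thia* effect differed between generations was tested as an interaction in 1 fit of the 12 libraries. None of the 47 members passed the FDR of 0.1 of edgeR (0 lower against 0.0051% of all genes, 0 higher against 0.0%), and the smallest adjusted p of a member was 0.248. At an unadjusted p under 0.05, 14 members had a lower effect in F3 than in F1 (6.10% of all genes) and 0 a higher one (7.93%). DESeq2 called 7 lower (1.87%) and 0 higher (2.80%). Of the members 44 had a difference below 0, against 47.8% of all genes. The median difference of effects was −0.21 for members and 0.018 for all genes, and it was −0.13 for members with the length trend removed, when 5 were lower at an unadjusted p under 0.05 (5.40%). *Psmd13* had a difference of −0.64 ± 0.16 SE, *Psmb1* of −0.60 ± 0.18, *Psmb5* of −0.56 ± 0.17, *Psma7* of −0.45 ± 0.12 and *Psma6* of −0.39 ± 0.11. Among the 7 members called by DESeq2 were *Psmd13*, *Psma6* and *Psma7*, with DESeq2 adjusted p of 0.0217, 0.0262 and 0.0401.

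More members passed the test between the control libraries of F3 and F1. In this comparison 32 members were higher in F3 control at an FDR of 0.1 of edgeR, where 19.9% of all 19626 genes were, and 3 were lower, where 22.4% were. With upper quartile scaling the split was 36 higher and 2 lower among members, and 25.6% higher and 16.5% lower over all genes. The member median was 0.32, against −0.018 for all genes, and it was 0.24 with the length trend removed. Length moved strongly with this comparison too, from 0.307 in the shortest bin of genes to −0.253 in the longest. Generation cannot be told apart from the collection and library preparation of each generation. Red blood cell markers summed to 62332 to 67057 CPM in F3 control and 5264 to 15505 CPM in F1 control. The part of cell content in the member differences was not tested. The F3 control libraries also enter the F3 effect, so the values of both comparisons are given side by side and are not independent.

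The higher level in F3 control spanned the core. *Psma6* had 220, 231 and 221 CPM in F1 control and 397, 372 and 378 CPM in F3 control (log2 difference 0.77 ± 0.075 SE, edgeR adjusted p = 9.52e-05). *Psma7* had 179, 179 and 157 against 333, 305 and 295 CPM (0.86 ± 0.086 SE, edgeR adjusted p = 0.000107), and *Psmb1* had a difference of 0.78 ± 0.13 SE. *Psma5* and *Psma3* differed by 0.63 and 0.60. Of the 14 constitutive core genes 13 were called higher, where 19.9% of all genes were. The exception, *Psmb2*, had −0.13 ± 0.099 SE (it was named after its value was seen). The F3 *thia* level of *Psma7* was 229 to 250 CPM, below every F3 control and above every F1 library (157 to 191 CPM).

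The regulatory particle was more mixed. Of the 6 ATPase genes 2 were called higher, where 19.9% of all genes were. *Psmc3* was at 236, 235 and 214 CPM in F1 control and 347, 317 and 325 in F3 control (0.53 ± 0.075 SE). Of the 11 non-ATPase genes 6 were called higher (19.9% of all genes), with *Psmd14* at 0.40 ± 0.068 SE, and *Psmd11* was lower at −0.19 ± 0.076 SE. *Psmd10* had 30.6, 31.3 and 32.8 against 63.7, 58.7 and 58.4 CPM, so that its F3 control level was above every F1 control library by the largest log2 difference of the 19S group (0.93 ± 0.096 SE). The activators *Psme1* and *Psme2* were higher by 0.40 ± 0.069 and 0.67 ± 0.097.

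Among the tissue genes, *Psmb8* was higher in F3 control by 1.30 ± 0.31 SE, *Psmb9* by 0.74 ± 0.21 and *Psmb10* by 0.77 ± 0.16, at edgeR adjusted p of 0.00802, 0.0193 and 0.00355. The summed level of 8 macrophage and leukocyte markers was 107 to 173 CPM in F3 control and 54.9 to 65.9 CPM in F1 control, and its part in these values was not tested. *Psma8* was lower by 0.75 on the log2 scale (SE 0.25, edgeR adjusted p = 0.0368), while germ cell markers were at 708 to 1104 CPM in F3 control and 1180 to 1591 CPM in F1 control. As a share of *Psma7*, both per kb of exon, *Psma8* was 5.85 to 9.95% in F1 control and 2.35 to 3.20% in F3 control. The third gene called lower was the 20S chaperone *Psmg2*, at −0.36 ± 0.071 SE.

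Partners of the proteasome outside the *Psm* symbols were listed for comparison. Of 21 cofactors, 0 passed an FDR in edgeR in F1 or F3, and 4 were lower and 0 higher in F3 at an unadjusted p under 0.05, where 10.0% of all genes were lower. DESeq2 called 3 of them lower, where it called 5.95% of all genes. *Pomp*, the maturation factor of the 20S core, had a log2 fold change of −0.32 ± 0.077 SE in F3 (adjusted p = 0.110 in edgeR, 0.0288 in DESeq2), with separate groups. *Akirin2*, needed for nuclear import of proteasomes, had −0.26 ± 0.072 SE, and *Txnl1*, a proteasome-associated thioredoxin, had −0.29 ± 0.082 SE. In F1, *Usp14*, a proteasomal deubiquitinase, had −0.16 ± 0.10 SE. Of 14 regulators of proteasome gene transcription, 0 were lower and 3 higher in F3 at an unadjusted p under 0.05, where 11% of all genes were higher, and DESeq2 called 1 higher (9.54% of all genes). *Nfe2l1*, the transcription factor known to raise proteasome genes when proteasome activity falls short, had 0.61 ± 0.15 SE in F3 (adjusted p = 0.111 in edgeR, 0.00437 in DESeq2). Its level was 102, 133 and 117 CPM in F3 control and 178, 149 and 211 CPM in F3 *thia*, beside 167 to 187 CPM in the F1 libraries. Its relative *Nfe2l2* had 0.22 ± 0.076 SE in F3.

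Of 10 ubiquitin and E1 enzyme genes, 4 were lower and 0 higher in F3 at an unadjusted p under 0.05 (10.0% of all genes lower), and DESeq2 called 3 lower (5.95%), with *Uba2*, the SUMO activating enzyme, at −0.32 ± 0.072 SE and *Rps27a*, a ubiquitin fusion gene, at −0.32 ± 0.087 SE. In F1, *Uba3* had −0.24 ± 0.10 SE. Of the MHC class I loading genes, 0 passed the FDR of edgeR in F3, with 6 of 11 higher and 0 lower at an unadjusted p under 0.05, and 4 higher by DESeq2, beside 11% and 9.54% of all genes. *H2-K1* had 0.84 ± 0.17 SE (adjusted p = 0.105 in edgeR, 0.000399 in DESeq2) and *Tapbp* 0.54 ± 0.11 SE. Of 17 tested interferon response genes, 0 passed the FDR of edgeR, 10 were higher and 0 lower at an unadjusted p under 0.05 (11% of all genes higher) and 8 higher by DESeq2 (9.54%), with *Oasl2* at 0.82 ± 0.13 SE (adjusted p = 0.101 in edgeR, 1.03e-05 in DESeq2). In F1, 0 genes of any of these lists passed the FDR of edgeR, and their median log2 fold changes were −0.05 for the cofactors, −0.06 for the regulators, 0.06 for the ubiquitin and E1 genes, 0.08 for the MHC class I loading genes and 0.29 for the interferon response genes. The immunoproteasome genes, induced by the same signalling, were not among the genes past a threshold in F3, and the largest member of the 3, *Psmb9*, had 0.25 ± 0.18 SE.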

How the data were processed

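Gene counts per library were deposited by the authors. Per the labels and the study's methods, paired-end reads of directional libraries were aligned to mm10 with HISAT2 2.1.0 and counted per gene with featureCounts. The strand setting of the counting is not given in the sources used here. Exon bases are shared with a gene on the other strand in 11 members and on the same strand in 3. Not marked above are *Psma4*, *Psma5*, *Psmb7*, *Psmd3*, *Psmd9* and *Psme1* (other strand), *Psmg3* (same strand) and *Psmd1* (both). The counts were analysed as deposited with edgeR 4.0.16 in R 4.3.3 (filterByExpr at a minimum count of 10, TMM, quasi-likelihood test, Benjamini-Hochberg adjustment over all genes tested), with FDR 0.15 in F1 and 0.1 elsewhere. F1 and F3 were fitted apart on 6 libraries each, and the interaction and the control comparison on 12. Printed CPM values use TMM over all 12 libraries, whose scaling differs slightly from that of the fits of 6. Lengths were exon unions of GENCODE M21 and covered 94.7% of the F3 genes.

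Named are, in each role, the 2 members with the smallest p in F1 and in F3, the highest and lowest per kb, up to 10 called members per comparison, the tissue beta genes and *Psma8*, and at most 3 genes per partner list and generation. Some other members are named for their values. Members, lists and tests were chosen with earlier results of these data known. DESeq2 1.42.0, other scalings and filters, removal of length or GC trends by loess (span 0.3), a replicate block and leaving out each library were tried as alternatives. The pipeline was tested on simulated data. Replicate numbers did not pair the libraries.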

Additional observations from a re-analysis of the deposited data

How the results depend on the processing

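The count of members called in F1 was 0 under every alternative run. For F3, 19 members were called lower at an FDR of 0.15, 27 at an unadjusted p under 0.05, 15 by DESeq2, 16 with all 12 libraries in 1 fit, 7 with upper quartile scaling, 6 with at least 10 counts in every library and 5 with no filter, and 0 to 9 when each library was left out, 9 without F3 *thia* replicate 2. The corresponding shares of all genes called lower were 4.78%, 10.0%, 5.95%, 3.99%, 1.68%, 1.06%, 0.661% and 2.59%. In F3 0 members were called with RLE size factors, with the length or the GC trend removed, at an FDR of 0.05 and without any 1 library other than *thia* replicate 2. In each of these settings at most 1 of all genes was called lower. The effect difference between generations was called for 7 members by DESeq2. With edgeR it was called for 0 with all libraries and for 0 when any 1 library was left out, and DESeq2 was not run without a library. The control comparison gave 31 to 37 called members without 1 library.

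The F3 median stayed below 0 throughout, at −0.19 with the length trend removed and −0.19 with the replicate block and the length trend removed, and at −0.26 to −0.21 when a library was left out. The F1 median was −0.03 to 0.06 when a library was left out. The share of the constitutive core was 51.2% with longest transcripts. Replicate numbers gave correlations of control and *thia* deviations of −0.0433, −0.039 and 0.0316 in F1 and 0.195, −0.368 and −0.238 in F3. Not every library correlated best with its own number. The replicate block called 0 members in F1 and 0 in F3 (2 and 0 of all genes lower, 1 and 0 higher), and left the F3 median at −0.24.

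Small F1 values changed sign: *Psma7* to −0.001 and *Psmc6* to 0.05 with the GC trend removed, *Psmd10* to −0.06 with the length trend removed, −0.07 with the replicate block and length, −0.001 in the fit of 12 and −0.07 to 0.11 when a library was left out, *Psmc4* to between −2e-05 and 0.14, and *Psmg3* to between −0.03 and 0.23. In F3 *Psmb8* ranged from −0.20 to 0.48. The cause was not tested. At 3 libraries per group, 95% intervals of the members had a median half-width of 0.19 in F3.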

Other observations

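The near copy of *Psme2*, *Psme2b*, had a log2 fold change of 0.15 in F1 and −0.22 in F3, and a difference of 0.69 between F3 and F1 control. The share of all counts taken by the 48 members was 0.712 to 0.782% in F1 control, 0.723 to 0.771% in F1 *thia*, 0.771 to 0.837% in F3 control and 0.660 to 0.726% in F3 *thia*.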
